A study of Homo sapiens with 8 samples.

Results

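Molecular chaperones were followed in 2 human breast cancer lines with and without knockdown of TAF7, a subunit of the general transcription factor TFIID. The set holds 42 genes of the 61552 in the deposited table, picked by symbol from a list of chaperones and their regulators. Of these, 23 act in the cytosol or nucleus, 4 in mitochondria and 15 in the endoplasmic reticulum (ER) or its stress response. The transcription factor XBP1 is counted with the ER genes. All 42 were found in 1 row each, and all 42 were among the 15923 genes with enough reads to test. MDA-MB-231 is a triple-negative breast cancer line, and MDA231-LM2 (LM2 below) is a lung-metastatic derivative of it. Each line carried either a control hairpin, labelled wild type, or hairpin 3 against TAF7, labelled TAF7 knockdown. That gave 4 groups of 2 RNA-seq libraries, numbered 2 and 3 in every group. A single TAF7 hairpin was used in each line, so effects of that hairpin on other transcripts cannot be told apart from those of TAF7. The cells were grown in ordinary serum-containing medium, and no heat or ER stress agent is named in the labels.

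Chaperones bind unfolded protein and, in most families, use cycles of ATP hydrolysis to help it fold. In the cytosol, HSP70 proteins are loaded with clients by J proteins and pass some of them to HSP90 or to TRiC, a ring-shaped chamber that folds actin and tubulin; many of these genes are induced by the heat shock factor HSF1. Mitochondria hold their own HSP70, HSP60 and HSP10, all encoded in the nucleus. The ER holds the HSP70 protein BiP, the HSP90 protein GRP94, lectin chaperones for glycoproteins and disulfide isomerases, and the unfolded protein response (UPR) raises their transcription through the factors XBP1 and ATF6.

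Some promoters in each compartment held a searched motif, the ER stress element or the heat shock element. Some that belong to genes described below are shown first. RefSeq windows of 300 bases (250 before to 50 after the gene start, build GRCh38.p14) were present for 40 of the 42 genes. The ER stress element, searched on both strands as CCAAT and CCACG with any 9 bases between them, was found in the windows of 6 of 14 ER genes (42.9%: CALR, CANX, HSP90B1, HSPA5, PDIA6 and XBP1), in 0 of 22 cytosolic genes and in 0 of 4 mitochondrial genes. Over all RefSeq windows, 25 of 27305 genes held it (0.0916%). Capitals mark the match in these sequences, which run 5′ to 3′ on the gene's strand and end at the gene start or shortly after the match; where the capitals begin with CGTGG the match lies on the opposite strand.
HSPA5 (chr9:125241344-125241593, minus strand): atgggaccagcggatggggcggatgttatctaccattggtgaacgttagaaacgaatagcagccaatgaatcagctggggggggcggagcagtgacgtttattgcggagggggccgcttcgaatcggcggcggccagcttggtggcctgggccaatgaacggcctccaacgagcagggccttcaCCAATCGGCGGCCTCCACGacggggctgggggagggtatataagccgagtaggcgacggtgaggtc
XBP1 (chr22:28800570-28800819, minus strand): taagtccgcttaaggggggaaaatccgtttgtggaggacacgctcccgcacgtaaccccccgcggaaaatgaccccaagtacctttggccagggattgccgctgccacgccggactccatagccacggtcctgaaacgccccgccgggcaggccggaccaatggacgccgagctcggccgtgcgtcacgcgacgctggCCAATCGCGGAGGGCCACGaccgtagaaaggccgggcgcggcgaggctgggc
HSP90B1 (chr12:103930181-103930374, plus strand): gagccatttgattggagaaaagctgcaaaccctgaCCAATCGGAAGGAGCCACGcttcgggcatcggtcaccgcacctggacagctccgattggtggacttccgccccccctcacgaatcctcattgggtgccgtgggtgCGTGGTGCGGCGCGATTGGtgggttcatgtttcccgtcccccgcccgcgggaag
CALR (chr19:12938359-12938437, plus strand): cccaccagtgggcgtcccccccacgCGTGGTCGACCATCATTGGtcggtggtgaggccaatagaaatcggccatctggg

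A heat shock element, searched on both strands as GAA, TTC and GAA with any 2 bases between each pair, was found in the windows of 5 of 22 cytosolic genes (22.7%: DNAJA1, DNAJB6, HSP90AA1, HSP90AB1 and HSPA8), in 1 of 4 mitochondrial genes (HSPD1) and in 0 of 14 ER genes. Over all windows, 166 of 27305 genes held it (0.608%). The capitals in HSPD1 cover a pair of overlapping matches. A match is a description of letters, and no statement on factor binding follows from it or from its absence.
HSPA8 (chr11:123062137-123062386, minus strand): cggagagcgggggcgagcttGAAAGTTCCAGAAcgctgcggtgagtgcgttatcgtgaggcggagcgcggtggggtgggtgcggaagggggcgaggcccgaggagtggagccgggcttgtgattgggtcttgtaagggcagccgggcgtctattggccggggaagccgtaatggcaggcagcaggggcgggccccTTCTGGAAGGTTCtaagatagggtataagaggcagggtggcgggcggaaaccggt
HSP90AA1 (chr14:102087085-102087167, minus strand): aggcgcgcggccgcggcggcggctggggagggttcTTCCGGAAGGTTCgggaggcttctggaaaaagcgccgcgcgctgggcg
HSP90AB1 (chr6:44247743-44247878, plus strand): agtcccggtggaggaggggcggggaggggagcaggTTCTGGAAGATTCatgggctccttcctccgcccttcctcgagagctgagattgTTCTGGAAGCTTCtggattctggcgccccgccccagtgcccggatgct
HSPD1 (chr2:197500033-197500090, minus strand): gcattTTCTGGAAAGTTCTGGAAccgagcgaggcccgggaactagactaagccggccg

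Read totals were 17217776 to 20292291 per library. TAF7 had 3446 and 3300 reads in MDA-MB-231 control and 1845 and 2160 with shTAF7. In LM2 it had 3548 and 3527 reads in control and 2549 and 2809 with shTAF7. Its log2 fold change was -0.77 ± 0.07 (standard error, edgeR adjusted p = 4.01e-12) in MDA-MB-231 and -0.43 ± 0.07 (edgeR adjusted p = 8.42e-07) in LM2. This difference in depth of knockdown (0.34, edgeR adjusted p = 0.00544) accompanies every comparison below of the knockdown effects or of the shTAF7 lines. Between the control lines the TAF7 difference was 0.11 (edgeR adjusted p = 0.152). All 8 markers fixed for these lines (VIM, CD44, EGFR, AXL, KRT8, KRT18, MSN and CAV1) were tested. They summed to 866 to 1104 FPKM per library. Of the 5 luminal markers, ESR1 and PGR were too low to test, while ERBB2, GATA3 and FOXA1 were tested. These 5 summed to 8.60 to 10.22 FPKM per library. FOXA1 was lower in LM2 control than in MDA-MB-231 control (log2 fold change -1.98, edgeR adjusted p = 3.24e-11). The 5 leukocyte markers summed to at most 0.13 FPKM and the 3 endothelial markers to at most 0.91 FPKM. The 4 fibroblast markers summed to 3.24 and 3.94 FPKM in LM2 control and to 0.87 to 1.80 FPKM in the other 6 libraries; the part of such cells or genes in the results was not tested. In bulk RNA, a change per cell and a change in the mix of cells cannot be told apart.

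After knockdown of TAF7 the cytosolic genes on the list moved differently in the 2 lines. Of the 15 ER genes 5 fell in each line, but these were mostly different genes. Only 1, HYOU1, was called lower in both (6.67%, against 4.11% of all tested genes). In LM2, 19 of 23 cytosolic chaperones rose and 1 fell, with a median log2 fold change of 0.35, while 2 of 15 ER genes rose and 5 fell, with a median of -0.04. In MDA-MB-231, 2 cytosolic genes rose and 4 fell (median -0.03), and 0 ER genes rose and 5 fell (median -0.13). Calls are those of edgeR's quasi-likelihood test at an adjusted p under 0.05 over all tested genes. By that rule 25.6% of all tested genes were called in MDA-MB-231 (12.6% higher, 12.9% lower) and 41.3% in LM2 (21.8% higher, 19.4% lower), and the medians of all tested genes were 0.01 and -0.02. The cytosolic share called higher in LM2 was 82.6%, for genes chosen with earlier results of these data known. The ER counts are those of the 15 genes and not of the whole compartment. Of 20 other ER folding and export genes, 8 rose and 2 fell in LM2 (median 0.16). Of 11 tested genes of ER-associated degradation, 4 rose and 2 fell. Of 12 UPR sensors and genes of the PERK branch, 1 rose and 8 fell. For the ER in MDA-MB-231, no gene was higher at an unadjusted p under 0.05, by DESeq2, or by limma on the FPKM values.

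The size of the cytosolic count in LM2 depended on the scaling of the libraries. The trimmed-mean (TMM) factors were 1.03 and 1.04 in LM2 control and 0.96 and 0.93 in LM2 shTAF7, and the deposited FPKM values carry no such factor. With the same edgeR test but without these factors, 14 cytosolic genes were called higher and 2 lower in LM2, against 13.1% and 29.3% of all tested genes, whose median moved to -0.14. Over the 42 genes the split in LM2 went from 23 higher and 6 lower to 14 higher and 10 lower, and the ER split from 2 higher and 5 lower to 0 higher and 7 lower. The genes that were no longer called higher were HSPH1, DNAJB1, DNAJB6, STIP1, TCP1, HSPE1, TRAP1, PDIA4 and SDF2L1, and those newly called lower were HSPA4, HSPA9, HSPA13 and DNAJC3. With the TMM factors kept and the test changed to limma on log2 CPM, the same 23 genes were called higher and the same 6 lower, against 20.9% and 18.5% of all tested genes. On log2(FPKM + 1), which changes both, limma called 12 cytosolic genes higher and 2 lower in LM2, against 11.9% and 25.2% of all tested genes, and 12 higher and 10 lower over the 42 genes.

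The test of the difference between the knockdown effects (LM2 minus MDA-MB-231) called 14 cytosolic genes higher and 0 lower, 2 mitochondrial genes higher and 0 lower, and 4 ER genes higher and 2 lower. Of all tested genes, 25.8% were called in that test (13.9% higher, 11.9% lower). No cytosolic or mitochondrial gene was lower at an unadjusted p under 0.05 or by DESeq2, and limma on log2(FPKM + 1) called 1 cytosolic gene lower, HSPB8. Over the 42 genes the split was 20 higher and 2 lower in edgeR, 14 higher and 4 lower in edgeR without the TMM factors (against 8.15% and 16.8% of all tested genes), and 11 higher and 5 lower in that limma fit (against 6.27% and 13.2%).

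**Figure D1:**
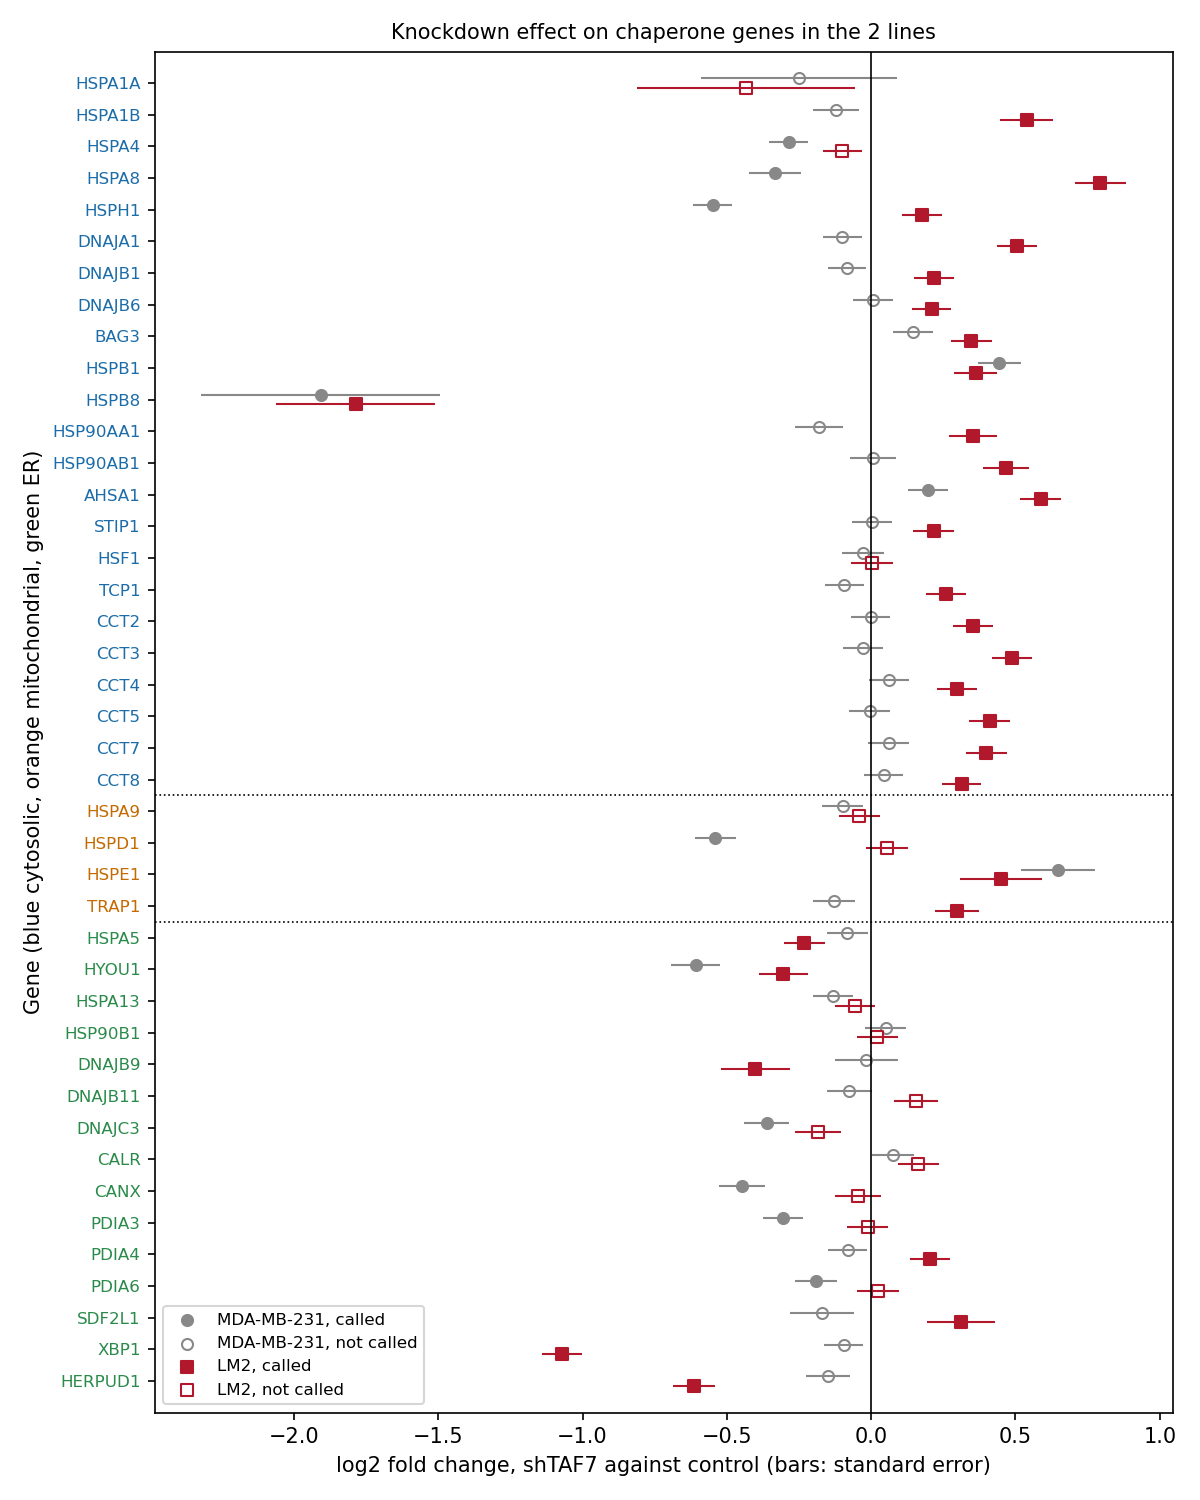
Log2 fold change of shTAF7 against control for the 42 genes (x axis, bars show the standard error) in MDA-MB-231 (grey circles) and LM2 (red squares), with filled symbols for edgeR adjusted p under 0.05. Most blue-labelled cytosolic genes lie right of 0 in LM2 and close to 0 in MDA-MB-231, and XBP1 and HERPUD1 lie furthest left among ER genes in LM2.

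With the TMM factors kept, the levels behind these effects set the LM2 control libraries apart. The counts in this paragraph were not repeated without these factors. In 17 of 23 cytosolic genes both LM2 control libraries were below the other 6 libraries in CPM (reads scaled to a common library total with the TMM factors), against 15.3% of all tested genes; in 1, HSPB8, both were above the other 6, against 16.7%. Of the mitochondrial genes 2 (HSPE1 and TRAP1) and of the ER genes 2 (PDIA4 and SDF2L1) were lowest there, and XBP1 and HERPUD1 were highest there. The MDA-MB-231 control libraries were both above the other 6 in 18 of 42 genes, 8 of them cytosolic, 2 mitochondrial and 8 in the ER, against 15.6% of all tested genes, and below the other 6 in 0 of 42, against 14.1%. The MDA-MB-231 shTAF7 libraries were both lowest in 4 genes (CANX, HERPUD1, HSPA9 and HSPB8), against 9.13% of all tested genes, and both highest in 4 (CCT7, CCT8, HSPB1 and HSPE1), against 10.8%. The LM2 shTAF7 libraries were both lowest in 3 (DNAJB9, HSPA5 and XBP1), against 15.5%, and both highest in 5 (CALR, CCT3, DNAJB11, DNAJB6 and HSP90AB1), against 16.9%. The same LM2 control libraries enter the LM2 knockdown comparison, the comparison of the control lines and the test of the difference, so these are not independent of each other.

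**Figure D2:**
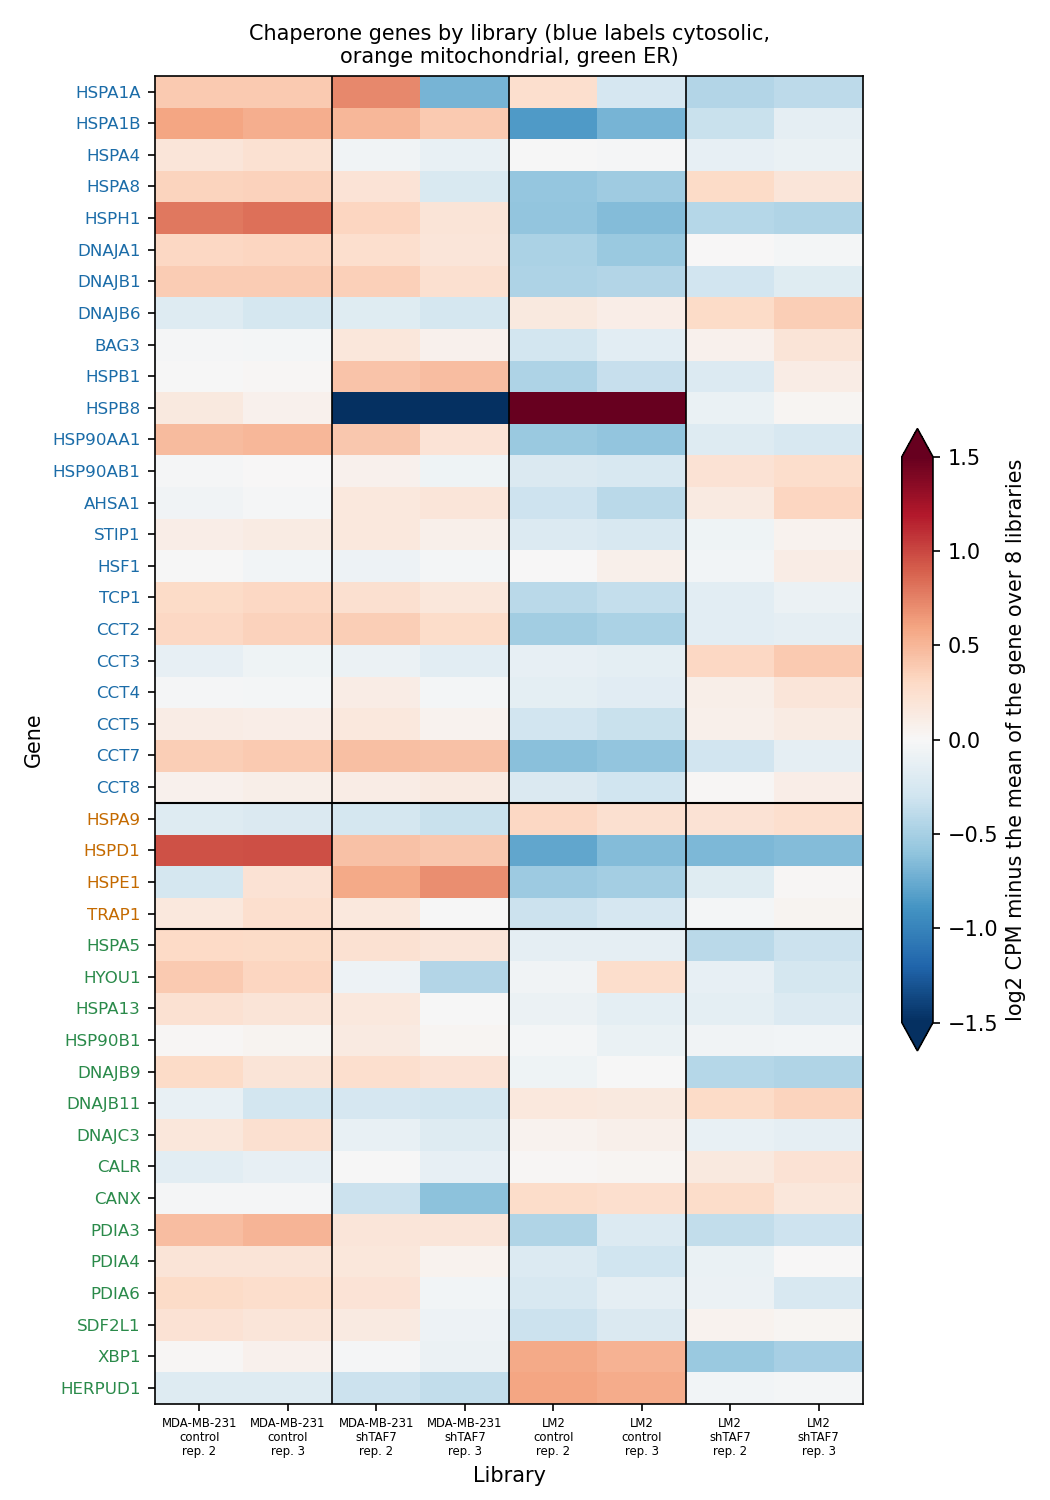
Log2 CPM of each of the 42 genes minus the mean of that gene over the 8 libraries, with genes in rows by compartment and libraries in columns by group; the colour scale ends at 1.5 in each direction. The LM2 control columns are blue for 17 cytosolic genes that are lowest there, and red for HSPB8, XBP1 and HERPUD1.

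Summed over the 23 cytosolic genes, the level was 18746 and 18986 CPM in MDA-MB-231 control, 18503 and 16587 with shTAF7, 12396 and 12275 in LM2 control, and 16429 and 16706 with shTAF7. LM2 control was thus the lowest group. In CPM the LM2 shTAF7 libraries stood level with the lower MDA-MB-231 shTAF7 library. In FPKM, without a TMM factor, they summed to 3946 and 3943 against 4184 in that library, below all MDA-MB-231 libraries. LM2 control was lowest there too (3189 and 3184 FPKM). The ER sum was 5502 and 5520 CPM in MDA-MB-231 control, 5218 and 4744 with shTAF7, 5281 and 5281 in LM2 control, and 5117 and 5098 with shTAF7, so its groups lay much closer together. For the 4 mitochondrial genes the sum was 2234 and 2249 CPM, 1780 and 1714 CPM, 1510 and 1504 CPM, and 1496 and 1531 CPM in the same order. These sums are descriptions and were not tested, and they are carried mainly by a few abundant genes.

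**Figure D3:**
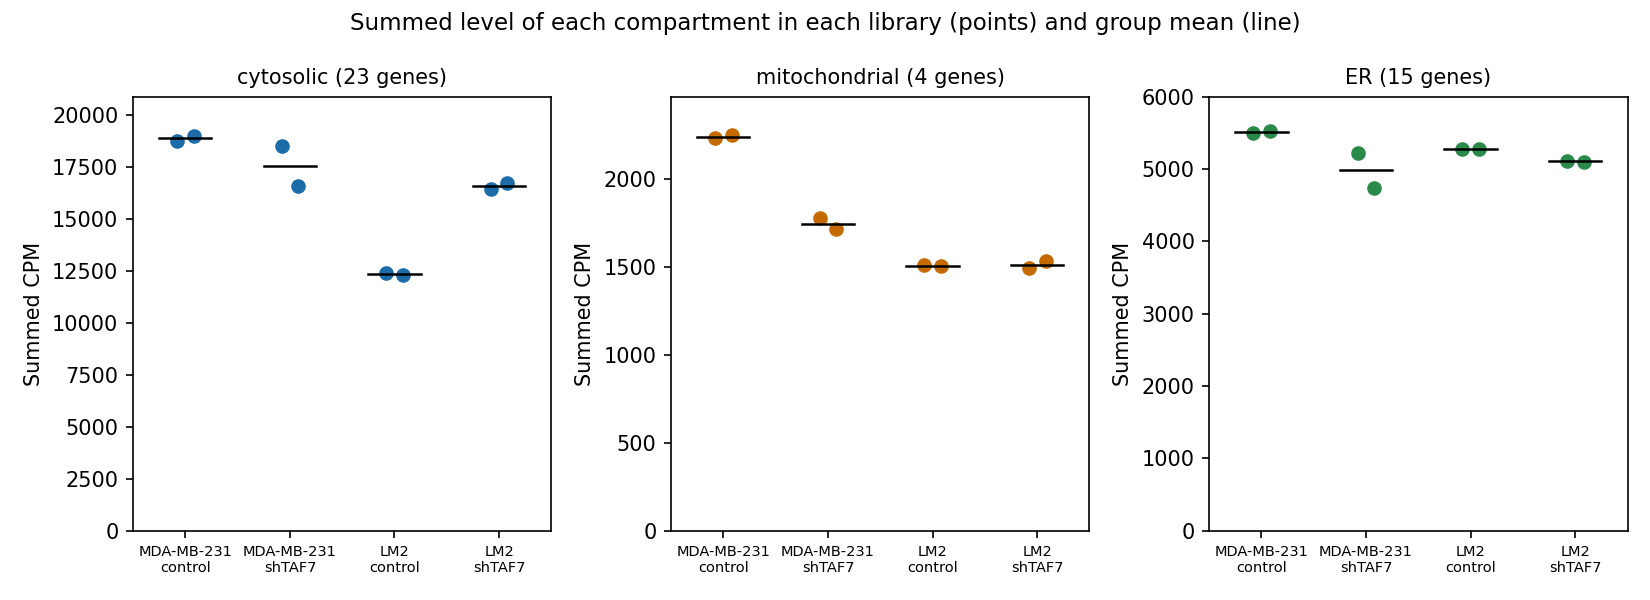
Summed CPM of the cytosolic, mitochondrial and ER genes (y axes from 0) in each library (points) and as the group mean (line, n = 2). The cytosolic sum is lowest in LM2 control, at 12396 and 12275 CPM, and the ER sum stays between 4744 and 5520 CPM in all 8 libraries.

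Among the cytosolic HSP70 genes, HSPA8, the constitutive HSC70, moved in opposite directions in the 2 lines. HSPA8 stood at 2866 and 2884 CPM in MDA-MB-231 control, 2624 and 1941 with shTAF7, 1515 and 1565 in LM2 control, and 2763 and 2579 with LM2 shTAF7. Its log2 fold change was 0.79 ± 0.09 in LM2 (1.73-fold, edgeR adjusted p = 6.95e-10) and -0.33 ± 0.09 in MDA-MB-231 (edgeR adjusted p = 0.00419). The MDA-MB-231 shTAF7 libraries lay far apart, and without replicate 3 the fall was -0.13 (edgeR adjusted p = 0.321); DESeq2 did not call it either (adjusted p = 0.0967). The difference between the effects was 1.13 ± 0.13 (edgeR adjusted p = 1.38e-09), the highest of the 42 genes.

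HSPH1, an HSP110 protein that recharges HSP70 with ATP, had 499 and 509 CPM in MDA-MB-231 control and 360 and 328 CPM with shTAF7. In LM2 it had 191 and 184 CPM in control and 213 and 210 CPM with shTAF7. In CPM with the TMM factors, the groups did not overlap in either line. HSPH1 had a fall in MDA-MB-231 (-0.55 ± 0.07, edgeR adjusted p = 2.57e-08) and a small rise in LM2 (0.18 ± 0.07, edgeR adjusted p = 0.0367). That rise was no longer called without either LM2 control library (replicate 2: 0.21, edgeR adjusted p = 0.0652; replicate 3: 0.16, edgeR adjusted p = 0.131), without MDA-MB-231 control replicate 2 or 3 (edgeR adjusted p = 0.0671 and 0.0697), without LM2 shTAF7 replicate 2 (edgeR adjusted p = 0.0693), or on log2(FPKM + 1), where limma gave 0.05. The difference between the lines' effects was 0.73 ± 0.10 (edgeR adjusted p = 8.44e-08). HSPA4, a further HSP110-type protein, fell in MDA-MB-231 (-0.29 ± 0.07, edgeR adjusted p = 0.00116); its value in LM2 was -0.10.

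HSPA1A and HSPA1B encode nearly identical stress-inducible HSP70 proteins, so the reads may be split between them and each value is uncertain. HSPA1B had 60.7 and 58.4 CPM in MDA-MB-231 control, 56.6 and 52.9 with shTAF7, 22.3 and 24.7 in LM2 control, and 31.8 and 36.5 with LM2 shTAF7. It rose in LM2 (0.54 ± 0.09, edgeR adjusted p = 5.35e-06), and the rise with both genes summed was 0.49 ± 0.09 (edgeR adjusted p = 2.03e-05). HSPA1A was listed at 2.18 and 2.18 CPM, 2.74 and 1.02 CPM, 1.98 and 1.39 CPM, and 1.23 and 1.27 CPM in the same order of groups. Its values overlapped between control and knockdown in MDA-MB-231, and it was called in no comparison.

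The J proteins deliver clients to HSP70, and BAG3 releases them from it. All 4 genes of this group rose in LM2 (0.21 to 0.51), and 0 of 4 were called in MDA-MB-231, where edgeR at an unadjusted p under 0.05 had 1 higher (BAG3) and DESeq2 had none. DNAJA1, an HSP40 cochaperone, had 664 and 664 CPM in MDA-MB-231 control, 634 and 605 with shTAF7, 382 and 361 in LM2 control, and 534 and 522 with LM2 shTAF7. Its rise in LM2 was 0.51 ± 0.07 (1.42-fold, edgeR adjusted p = 6.11e-08), and the difference between the lines' effects was 0.61 ± 0.10 (edgeR adjusted p = 4.18e-06). The rises of DNAJB1 (0.22) and DNAJB6 (0.21) were not called without 1 LM2 control library (DNAJB1 without replicate 2, edgeR adjusted p = 0.059; DNAJB6 without replicate 3, edgeR adjusted p = 0.053). Both also lost their call without the TMM factors (0.09 and 0.08, edgeR adjusted p = 0.273 and 0.298) and on log2(FPKM + 1), where limma called 2 of the 4 genes in LM2 (DNAJB1 0.08, adjusted p = 0.201; DNAJB6 0.08, adjusted p = 0.215).

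The small heat shock proteins hold unfolded clients without ATP, and the 2 on the list moved in opposite directions to each other in both lines. HSPB1 (HSP27) had 194 and 197 CPM in MDA-MB-231 control, 262 and 270 with shTAF7, 142 and 154 in LM2 control, and 169 and 211 with LM2 shTAF7. Its log2 fold change was 0.44 ± 0.07 in MDA-MB-231 (edgeR adjusted p = 1.06e-05) and 0.36 ± 0.08 in LM2 (edgeR adjusted p = 0.000113), where limma on log2(FPKM + 1) gave 0.22 (adjusted p = 0.0797). The difference between the effects was -0.08 ± 0.11 (edgeR adjusted p = 0.622). HSPB8, a partner of BAG3, was low, with 32 and 28 reads in MDA-MB-231 control, 9 and 7 with shTAF7, 86 and 97 in LM2 control, and 25 and 29 with LM2 shTAF7. It fell in both lines (-1.91 ± 0.41, edgeR adjusted p = 0.000438; -1.79 ± 0.27, edgeR adjusted p = 7.41e-07) and was the 1 cytosolic gene called lower in LM2. DESeq2 gave no adjusted p for HSPB8 in MDA-MB-231.

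The HSP90 proteins mature kinases and steroid receptors. All 4 genes of the HSP90 group rose in LM2, and 1 of them, AHSA1, rose in MDA-MB-231. HSP90AA1, the inducible form, had 4854 and 4930 CPM in MDA-MB-231 control, 4623 and 4005 with shTAF7, 2378 and 2308 in LM2 control, and 3045 and 2945 with LM2 shTAF7. Its rise in LM2 was 0.35 ± 0.08 (edgeR adjusted p = 0.00052), and limma on log2(FPKM + 1) gave 0.23 (adjusted p = 0.0717). In MDA-MB-231 its value was -0.18, the lowest of the group, and edgeR with the TMM factors did not call it. It was lower there at an unadjusted p under 0.05, by DESeq2 and by edgeR without the TMM factors, but not by limma. HSP90AB1, the constitutive form, was at 2935 and 2996 CPM, 3114 and 2849 CPM, 2564 and 2529 CPM, and 3455 and 3582 CPM, with a rise of 0.47 ± 0.08 in LM2 (edgeR adjusted p = 5.23e-06).

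AHSA1, the activator of the HSP90 ATPase, had 304 and 311 CPM in MDA-MB-231 control, 350 and 356 with shTAF7, 254 and 237 in LM2 control, and 345 and 392 with LM2 shTAF7. The rise in LM2 was 0.59 ± 0.07 (edgeR adjusted p = 2.56e-09). In MDA-MB-231 it was 0.20 ± 0.07 (edgeR adjusted p = 0.0311), and leaving out any of the 4 MDA-MB-231 libraries ended that call (0.18 to 0.21, edgeR adjusted p = 0.0659 to 0.266). STIP1, which joins HSP70 to HSP90, rose by 0.22 ± 0.07 in LM2, but was not called without the TMM factors (0.09, edgeR adjusted p = 0.262) or by limma on log2(FPKM + 1) (0.09, adjusted p = 0.198), which called 2 of the 4 genes of the HSP90 group in LM2. Levels of the HSP90 genes can be set against each other per length within a library: the FPKM ratio of HSP90AA1 to HSP90AB1 was 0.967 and 0.962 in MDA-MB-231 control and 0.868 and 0.822 with shTAF7. In LM2 the ratio was 0.542 and 0.534 in control and 0.515 and 0.481 with shTAF7, below all MDA-MB-231 libraries.

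TRiC subunits moved together in LM2. The 7 subunits on the list all rose there, by 0.26 to 0.49, and 0 of 7 were called in MDA-MB-231, where none reached an unadjusted p under 0.05 and none was called by DESeq2 or limma. The difference between the lines' effects was called for 6 of 7, CCT4 being the exception (0.23, edgeR adjusted p = 0.0708). Without the TMM factors edgeR called 6 of 7 in LM2 and 4 of 7 for the difference, as did limma on log2(FPKM + 1). A further subunit, CCT6A, was among the other cytosolic chaperones described at the end; it rose in LM2 (0.40 ± 0.07, edgeR adjusted p = 7.79e-06), its value in MDA-MB-231 was -0.14 (edgeR adjusted p = 0.129), and the difference was 0.54 ± 0.10 (edgeR adjusted p = 3.28e-05). CCT3 had 623 and 652 CPM in MDA-MB-231 control, 638 and 611 with shTAF7, 622 and 614 in LM2 control, and 842 and 891 with LM2 shTAF7. It rose by 0.49 ± 0.07 in LM2 (1.40-fold, edgeR adjusted p = 1.83e-07). CCT7 was lower in LM2 control, at 402 and 412 CPM against 799 and 815 CPM in MDA-MB-231 control, and reached 507 and 566 CPM with LM2 shTAF7 (0.40 ± 0.07, edgeR adjusted p = 1.13e-05). HSF1, the transcription factor of the heat shock response, was called in no comparison, with 82.8 to 94.8 CPM over the 8 libraries.

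**Figure D4:**
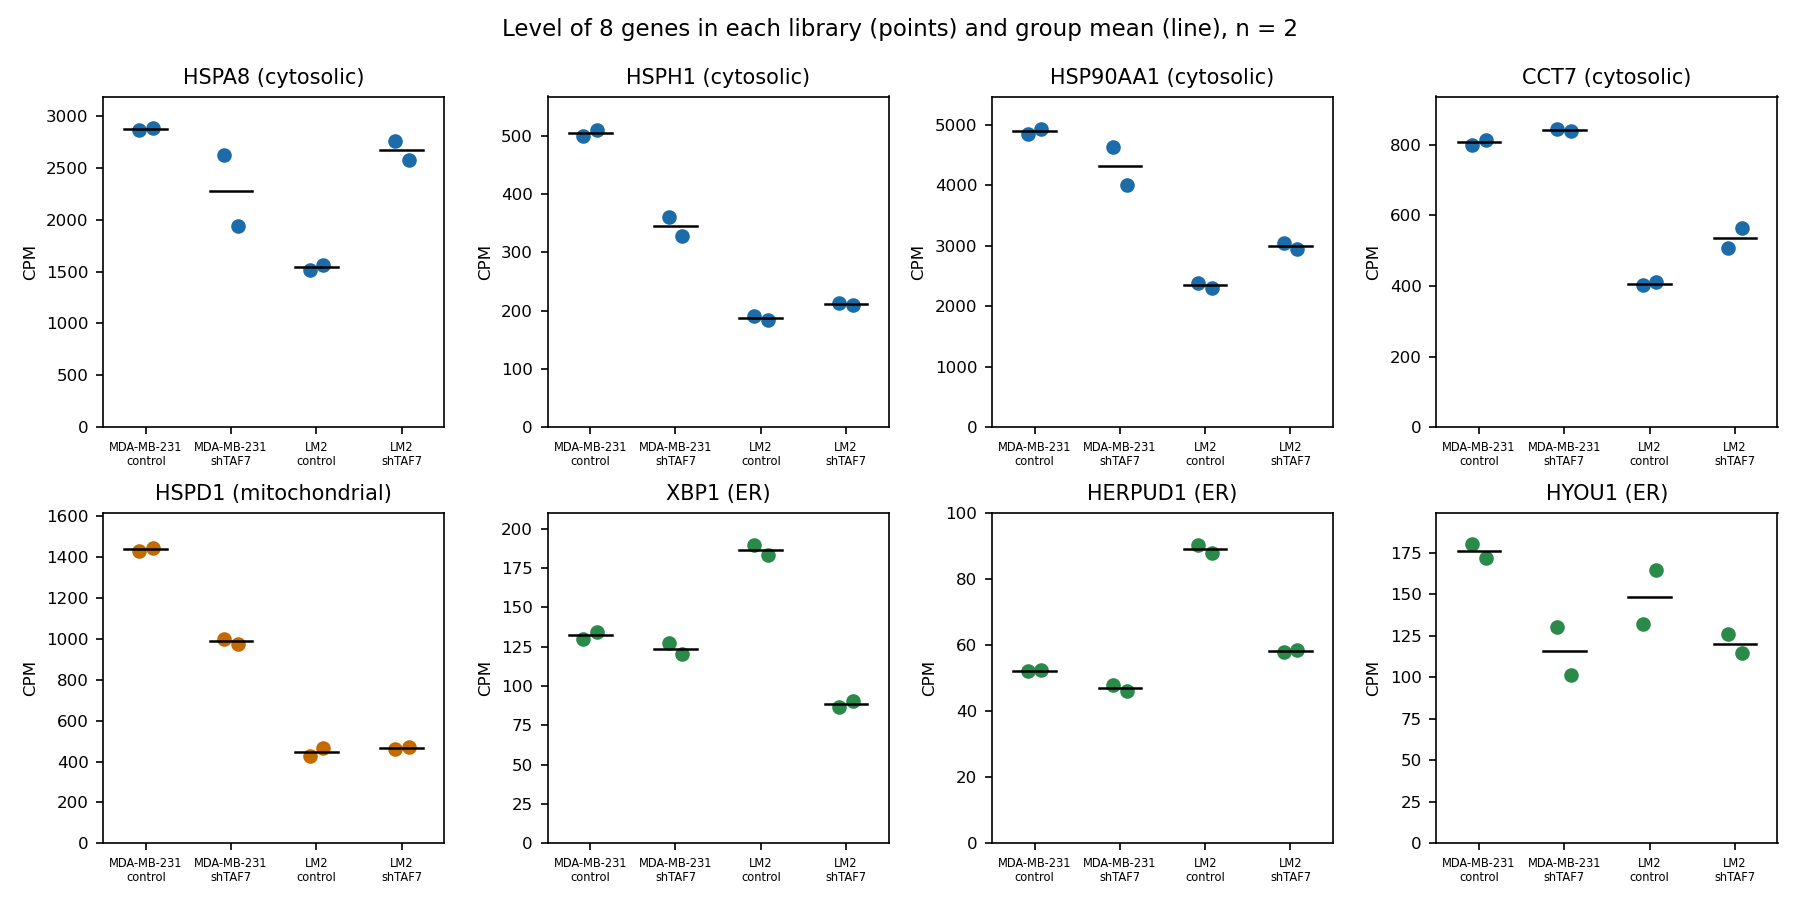
CPM of 8 genes (y axes from 0) in each library (points, n = 2 per group) with the group mean as a line. HSPA8 is at 1515 and 1565 CPM in LM2 control and at 2763 and 2579 CPM with shTAF7, HSPD1 does not rise there, and XBP1 and HERPUD1 are highest in LM2 control.

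The mitochondrial genes gave no common direction. HSPD1, the HSP60 folding chamber, had 1427 and 1445 CPM in MDA-MB-231 control, 1000 and 974 with shTAF7, 428 and 468 in LM2 control, and 462 and 470 with LM2 shTAF7. It fell in MDA-MB-231 (-0.54 ± 0.07, edgeR adjusted p = 1.3e-07), and its value in LM2 was 0.06 ± 0.07 (edgeR adjusted p = 0.57), with overlapping libraries. HSPD1 was lower in LM2 control than in MDA-MB-231 control (-1.68 ± 0.07, edgeR adjusted p = 4.12e-25), the widest line difference downward among the 42 genes. TRAP1, the mitochondrial HSP90, rose by 0.30 ± 0.08 in LM2 (edgeR adjusted p = 0.0015), and limma on log2(FPKM + 1) gave 0.16 (adjusted p = 0.0806). DNASE1, on the other strand, overlaps 29.3% of the exon bases of TRAP1, so its count is uncertain without the strand setting.

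HSPE1, the HSP10 lid of the HSP60 chamber, is transcribed head to head with HSPD1 and its annotated exons overlap those of HSPD1 and of HSPE1-MOB4, so its reads could be split in counting and its values are uncertain. It had 10.7 and 14.9 CPM in MDA-MB-231 control, 19.1 and 20.9 with shTAF7, 8.86 and 9.08 in LM2 control, and 11.4 and 13.1 with LM2 shTAF7. Its log2 fold change was 0.65 ± 0.13 in MDA-MB-231 (edgeR adjusted p = 0.000127; without control replicate 2, 0.42 and 0.0583) and 0.45 ± 0.14 in LM2 (edgeR adjusted p = 0.00964; without shTAF7 replicate 3, 0.36 and 0.11; without control replicate 2, 0.44 and 0.051). HSPA9 (mortalin), the mitochondrial HSP70, had 719 and 707 CPM in MDA-MB-231 control, 683 and 650 with shTAF7, 1017 and 969 in LM2 control, and 954 and 976 with LM2 shTAF7. It was higher in LM2 under both hairpins (0.48 and 0.53) and was called in neither knockdown comparison.

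In the ER, the UPR factors XBP1 and HERPUD1 fell in LM2. XBP1, the factor spliced by the sensor IRE1, had 130 and 134 CPM in MDA-MB-231 control, 127 and 120 with shTAF7, 189 and 183 in LM2 control, and 86.9 and 90.5 with LM2 shTAF7. Its log2 fold change in LM2 was -1.07 ± 0.07 (47.6% of the control level, edgeR adjusted p = 1.39e-17), against -0.10 ± 0.07 in MDA-MB-231 (edgeR adjusted p = 0.338). The difference was -0.98 ± 0.10 (edgeR adjusted p = 4.73e-11). XBP1 was therefore above MDA-MB-231 in LM2 control (0.50) and below it in LM2 shTAF7 (-0.48), and both line differences were called. Gene counts do not separate spliced from unspliced XBP1.

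HERPUD1, a membrane protein of ER-associated degradation, had 52.3 and 52.4 CPM in MDA-MB-231 control, 48.0 and 46.3 with shTAF7, 90.5 and 88.0 in LM2 control, and 58.1 and 58.6 with LM2 shTAF7. It fell by 0.61 on the log2 scale in LM2 (standard error 0.07, edgeR adjusted p = 2.07e-09), and the difference between the effects was -0.46 ± 0.11 (edgeR adjusted p = 0.000706). SDF2L1, a partner of ER J proteins, had 19.0 and 18.6 CPM in MDA-MB-231 control, 18.0 and 15.5 with shTAF7, 13.1 and 14.0 in LM2 control, and 17.03 and 16.69 with LM2 shTAF7. Its rise in LM2 (0.31 ± 0.12, edgeR adjusted p = 0.0288) was not called by DESeq2 (adjusted p = 0.0899) or without LM2 control replicate 2, LM2 shTAF7 replicate 2 or LM2 shTAF7 replicate 3 (edgeR adjusted p = 0.162, 0.0868 and 0.0542). None of these 3 genes was called in MDA-MB-231, at an unadjusted p under 0.05 or by DESeq2 or limma.

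HSPA5 (BiP), the main ER HSP70, had 1072 and 1063 CPM in MDA-MB-231 control, 1026 and 990 with shTAF7, 798 and 796 in LM2 control, and 660 and 697 with LM2 shTAF7. It fell in LM2 (-0.23 ± 0.07, edgeR adjusted p = 0.00728), and its value in MDA-MB-231 was -0.08 ± 0.07. The FPKM ratio of HSPA8 to HSPA5, which needs no scaling between libraries, was 3.60 and 3.65 in MDA-MB-231 control, 3.44 and 2.64 with shTAF7, 2.56 and 2.65 in LM2 control, and 5.64 and 4.98 with LM2 shTAF7. The LM2 shTAF7 libraries were above the other 6 in that ratio. HSP90B1 (GRP94) was called in no comparison, with 793 to 930 CPM over the 8 libraries, and HSPA13, a microsomal HSP70, was called in neither knockdown comparison.

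HYOU1, the ER HSP110, had 181 and 172 CPM in MDA-MB-231 control, 130 and 101 with shTAF7, 132 and 165 in LM2 control, and 126 and 115 with LM2 shTAF7. It fell in MDA-MB-231 (-0.61 ± 0.08, edgeR adjusted p = 4.03e-07). In LM2 the value was -0.30 ± 0.08 (edgeR adjusted p = 0.00319), but the control libraries lay apart: without control replicate 3 it was -0.13 (edgeR adjusted p = 0.332), without shTAF7 replicate 3 it was -0.22 (edgeR adjusted p = 0.0971), and DESeq2 gave an adjusted p of 0.194. DNAJB9, an ER J protein and target of XBP1, had 19.7 and 18.4 CPM in MDA-MB-231 control, 19.1 and 18.6 with shTAF7, 15.4 and 16.0 in LM2 control, and 12.002 and 11.77 with LM2 shTAF7. It fell in LM2 (-0.40 ± 0.12, edgeR adjusted p = 0.00542; without control replicate 3, -0.36 and 0.0518); its exons overlap those of THAP5 and PNPLA8 on the other strand. DNAJC3, an ER J protein that also inhibits PERK, fell in MDA-MB-231 (-0.36 ± 0.08, edgeR adjusted p = 0.000396), and its value in LM2 was -0.18.

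Of the 5 lectin chaperones and disulfide isomerases, CANX, PDIA3 and PDIA6 were called lower in MDA-MB-231, and CALR and PDIA4 were not called there. CANX (calnexin), a membrane lectin, had 1227 and 1229 CPM in MDA-MB-231 control, 992 and 811 with shTAF7, 1507 and 1486 in LM2 control, and 1504 and 1398 with LM2 shTAF7. It fell in MDA-MB-231 (-0.45 ± 0.08, edgeR adjusted p = 2.93e-05), and its value in LM2 was -0.04 ± 0.08 (edgeR adjusted p = 0.687). The difference of 0.40 was called (edgeR adjusted p = 0.00547) but not without MDA-MB-231 shTAF7 replicate 3 (0.27, edgeR adjusted p = 0.0599). CALR (calreticulin), its soluble counterpart, was called in neither knockdown comparison by edgeR. It had 759 and 777 CPM, 844 and 776 CPM, 857 and 867 CPM, and 942 and 989 CPM in the usual order of groups, with overlap in MDA-MB-231 only. Its value in LM2 was 0.16, which was higher at an unadjusted p under 0.05 and by DESeq2. Neither limma nor edgeR without the TMM factors called CALR there.

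PDIA3 (ERp57), which works with the lectins, had 313 and 324 CPM in MDA-MB-231 control, 259 and 257 with shTAF7, 166 and 197 in LM2 control, and 176 and 183 with LM2 shTAF7. It fell in MDA-MB-231 (-0.30 ± 0.07, edgeR adjusted p = 0.000909), and in LM2 the groups overlapped (-0.01). PDIA6 was called lower in MDA-MB-231 (-0.19, edgeR adjusted p = 0.0461), but not by DESeq2 (adjusted p = 0.0648) or without any of control replicate 2, control replicate 3 and shTAF7 replicate 3 (edgeR adjusted p = 0.231, 0.159 and 0.618); ATP6V1C2 on the other strand overlaps 25.2% of its exon bases. PDIA4 was called higher in LM2 (0.20, edgeR adjusted p = 0.0146), but not without control replicate 3 or shTAF7 replicate 3 (edgeR adjusted p = 0.113 and 0.0679), and limma on log2(FPKM + 1) gave 0.08. DNAJB11, an ER J protein of BiP, was called in neither knockdown comparison.

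Set beside the promoters shown at the start, 2 of the 6 genes with an ER stress element fell in LM2 (HSPA5 and XBP1), and CALR, CANX, HSP90B1 and PDIA6 were not called there; 33.3% of all 15 ER genes and 19.4% of all tested genes were called lower in that comparison. Of the 6 genes with the heat shock element, DNAJA1, DNAJB6, HSP90AA1, HSP90AB1 and HSPA8 rose in LM2, and HSPD1 was not called there; 82.6% of all 23 cytosolic genes and 21.8% of all tested genes were called higher. Cytosolic genes without a match in the window also rose, among them CCT3 and AHSA1.

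Between the lines with the control hairpin, 17 of 23 cytosolic genes were lower in LM2 and 2 were higher (median -0.37), and 8 of 15 ER genes were lower and 5 higher (median -0.25). In that comparison 64.4% of all tested genes were called (32.2% higher, 32.1% lower), with a median of 0.02. With shTAF7 in both lines, 9 cytosolic genes were lower in LM2 and 5 higher (median -0.07). Of the 15 ER genes, 7 were lower and 4 higher (median -0.12). Of all tested genes, 62.5% were called in that comparison (30.9% higher, 31.6% lower). The line difference of 9 of the 42 genes was called with the control hairpin and not with shTAF7 (21.4%, against 15.4% of all tested genes): AHSA1, BAG3, CCT5, CCT8, HSPA4, HYOU1, SDF2L1, STIP1 and TRAP1. HSP90AB1, HSPA8 and XBP1 were called in opposite directions (7.14%, against 2.62% of all tested genes). Of these, the shTAF7 line difference of HSPA8 (0.23, edgeR adjusted p = 0.0248) was 0.02 without MDA-MB-231 shTAF7 replicate 3 (edgeR adjusted p = 0.862) and 0.15 without the TMM factors (edgeR adjusted p = 0.129), and that of HSP90AB1 (0.24, edgeR adjusted p = 0.0082) was 0.17 without it (edgeR adjusted p = 0.079). With the control hairpin, 4 of the differences named here also lost their call without 1 library: BAG3 and HYOU1 without LM2 control replicate 2 (edgeR adjusted p = 0.162 and 0.368) or MDA-MB-231 control replicate 2 (0.0725 and 0.0573), HSP90AB1 without MDA-MB-231 control replicate 2 or 3 (0.0562 and 0.0887), and HSPA4 without MDA-MB-231 control replicate 3 (0.051).

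Other genes of these pathways were taken from further lists that, like the 42, were chosen with earlier results of these data known. Counts for all such lists use the TMM factors and are not given without them. Of 32 other cytosolic chaperones tested, 16 rose and 1 fell in LM2 (50% and 3.12%, against 21.8% and 19.4% of all tested genes; median 0.22). In MDA-MB-231, 10 rose and 5 fell (31.2% and 15.6%, against 12.6% and 12.9%; median 0.02). BAG1, a nucleotide exchange factor of HSP70, rose in both lines (0.68 ± 0.08 in LM2, edgeR adjusted p = 7.76e-10; 0.39 ± 0.08 in MDA-MB-231, edgeR adjusted p = 0.000118). Of 12 UPR sensors and genes of the PERK branch, 8 fell and 1 rose in LM2 (66.7% and 8.33%, against 19.4% and 21.8% of all tested genes; median -0.77), and 4 fell in MDA-MB-231 (33.3%, against 12.9%; median -0.14). ERN1, which encodes IRE1, the kinase and nuclease that splices XBP1, had 12.6 and 15.4 CPM in MDA-MB-231 control, 12.1 and 13.5 with shTAF7, 35.9 and 38.8 in LM2 control, and 12.3 and 13.5 with LM2 shTAF7. Its fall in LM2 was -1.53 ± 0.11 (edgeR adjusted p = 6.18e-16), and its LM2 control libraries were above the other 6, as for XBP1. DDIT3 (CHOP), a stress-induced transcription factor, fell in LM2 from 25.4 and 24.6 CPM to 8.26 and 8.66 CPM (-1.56 ± 0.13, edgeR adjusted p = 2.85e-14). TRIB3, a target of CHOP, fell from 71.1 and 72.8 CPM to 28.2 and 30.6 CPM (-1.29 ± 0.08, edgeR adjusted p = 1.03e-17).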

How the data were processed

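RNA of 8 libraries was sequenced after mRNA enrichment, per the labels' protocols. The authors deposited a table of raw read counts per gene and a table of FPKM values (fragments scaled to gene length and library total). STAR 2.7.10a and hg19 are named in the submitters' processing notes; for the counting program, annotation and strand setting, the sources used here name none. Over 1541 genes, count divided by FPKM followed the library totals to within 0.0254% for any gene, so the deposited FPKM values are per total reads without a TMM factor.

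Counts were tested with edgeR 4.0.16 (R 4.3.3): filterByExpr, TMM, 1 mean per group over all 8 libraries (4 residual degrees of freedom), quasi-likelihood test and Benjamini-Hochberg adjustment over 15923 genes. The test was also tried on simulated data drawn with the spread fitted to these libraries. That trial had few changed genes and cannot show how the calls depend on the scaling. CPM are counts scaled to the TMM-adjusted library total. The standard error is the log2 fold change divided by the root of F. Alternatives were DESeq2 1.42.0, RLE factors in edgeR, a fit of the 4 compared libraries by themselves, all genes kept regardless of count, a replicate block, each library left out, and limma 3.58.1 on log2(FPKM + 1), log2(FPKM + 0.1) and without a filter. After seeing the data, edgeR without TMM factors and limma on log2 CPM with them were added.

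The members and lists were chosen with earlier results of these data known. Values in every library are given for genes called in a knockdown comparison or the difference of effects with a log2 fold change of at least 0.5, or at the top or bottom of their compartment; of each other list, up to 4 called genes with at least 5 CPM could be named. HSPA5, HSP90AB1, CCT7 and CCT6A were added after their values were seen. Labels do not say whether the libraries of a group came from separate cultures, so p-values measure the spread between these libraries, which may be technical. Promoter windows are from RefSeq (GRCh38.p14), and exon overlaps from GENCODE 29. Intervals are not given for shares of reads.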

Additional observations from a re-analysis of the deposited data

Results flagged for a closer look

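For 22 of the 42 genes the knockdown effect differed between the lines by the interaction test in edgeR (adjusted p under 0.05), given here as the log2 effect in LM2 minus that in MDA-MB-231; 25.8% of all tested genes were called in that test. All 22 comparisons rest on the same 2 LM2 control and 2 MDA-MB-231 control libraries. Among the cytosolic HSP70 and J protein genes the difference was 1.13 for HSPA8, 0.73 for HSPH1, 0.66 for HSPA1B, 0.61 for DNAJA1 and 0.30 for DNAJB1. In the HSP90 group it was 0.54 for HSP90AA1, 0.46 for HSP90AB1 and 0.39 for AHSA1. For the TRiC subunits it was 0.52 for CCT3, 0.42 for CCT5, 0.36 for CCT2, 0.35 for TCP1, 0.34 for CCT7 and 0.27 for CCT8. In mitochondria it was 0.60 for HSPD1 and 0.43 for TRAP1. In the ER it was 0.48 for SDF2L1, 0.40 for CANX, 0.29 for PDIA3 and 0.29 for PDIA4 in the upward direction, and -0.98 for XBP1 and -0.46 for HERPUD1 downward. Without the TMM factors 6 of these were no longer called: DNAJB1 (0.19), CCT7 (0.22), CCT8 (0.16), PDIA3 (0.18), PDIA4 (0.17) and SDF2L1 (0.37), with edgeR adjusted p of 0.0598 to 0.185. Without 1 library, 7 were no longer called. Without MDA-MB-231 control replicate 2 these were DNAJB1 (0.31), CCT8 (0.29), PDIA3 (0.33), PDIA4 (0.30) and SDF2L1 (0.48), with edgeR adjusted p of 0.0585 to 0.101. Without MDA-MB-231 control replicate 3 they were DNAJB1 (0.31), CCT7 (0.34), CCT8 (0.27), PDIA3 (0.28), PDIA4 (0.30) and SDF2L1 (0.51), with edgeR adjusted p of 0.0501 to 0.136. Without MDA-MB-231 shTAF7 replicate 3 they were DNAJB1 (0.25), CANX (0.27), PDIA4 (0.23) and SDF2L1 (0.38), with edgeR adjusted p of 0.0599 to 0.124. Without LM2 control replicate 2 they were DNAJB1 (0.30), PDIA3 (0.18) and SDF2L1 (0.44), with edgeR adjusted p of 0.0521 to 0.274, and without replicate 3 CCT8 (0.25) and PDIA4 (0.26), with edgeR adjusted p of 0.0576 and 0.0574.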

How the results depend on the processing

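No call on one of the 42 genes reversed under any alternative. Alternatives chosen after seeing the data changed the scaling and the test 1 at a time. Without the TMM factors, edgeR called 14 cytosolic genes higher (19 with them) and 2 lower (1) in LM2, 0 ER genes higher (2) and 7 lower (5), and for the difference of effects 11 cytosolic genes higher (14) and 1 ER gene higher (4) and 4 lower (2); the median of all tested genes was -0.14 in LM2 and -0.12 for the difference. With the factors kept, limma on log2 CPM called 19 cytosolic genes higher in LM2 and 14 for the difference. The FPKM fits change scaling and test together. Given in the order log2(FPKM + 1), log2(FPKM + 0.1) and log2(FPKM + 1) without a filter, limma called 12, 12 and 9 cytosolic genes higher in LM2 (edgeR 19) and 2, 2 and 2 lower (edgeR 1), and 0, 0 and 0 ER genes higher (edgeR 2). For the difference of effects it called 9, 9 and 5 cytosolic genes higher (edgeR 14) and 1 lower on the first scale (edgeR 0), 1, 1 and 0 ER genes higher (edgeR 4) and 4, 4 and 4 lower (edgeR 2). In MDA-MB-231 it called 1, 1 and 0 cytosolic genes higher (edgeR 2), and without a filter 2 cytosolic genes lower (edgeR 4) and 1 ER gene lower (edgeR 5). Between the lines with shTAF7 it called 3, 3 and 2 cytosolic genes higher (edgeR 5). The median of all tested genes in LM2 was -0.13 on log2(FPKM + 0.1) and -0.02 in edgeR. The log2 ratios of summed levels went, from CPM to FPKM, from 0.43 to 0.31 (cytosol), 0.01 to -0.10 (mitochondria) and -0.05 to -0.15 (ER) in LM2, from -0.61 to -0.54, -0.57 to -0.66 and -0.062 to -0.036 between control lines, and from -0.21 to -0.39 (mitochondria) and 0.036 to -0.085 (ER) between shTAF7 lines, so the mitochondrial sum in LM2 and the ER sum between shTAF7 lines changed sign.

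Leaving out each library gave 1 to 2 cytosolic genes higher and 4 to 6 ER genes lower in MDA-MB-231. In LM2 it gave 17 to 19 cytosolic genes higher, 0 to 3 ER genes higher (0 without LM2 shTAF7 replicate 3, 1 without either LM2 control library) and 3 to 5 ER genes lower (3 without LM2 control replicate 3). It gave 3 to 5 cytosolic genes higher between the shTAF7 lines (3 without MDA-MB-231 shTAF7 replicate 3), and for the difference of effects 11 to 18 cytosolic and 1 to 6 ER genes higher (1 without MDA-MB-231 control replicate 2, control replicate 3 or shTAF7 replicate 3). With 1 library left in a group, that library is assumed to vary like the other groups. Correlations of same-numbered libraries' deviations over all tested genes were -0.06 to 0.02. No strong shared shift by number was seen, but this check cannot show that same-numbered libraries were prepared separately. With the replicate block the calls were 19 cytosolic genes higher in LM2 and 14 for the difference of effects. CALR lost its call between control lines and PDIA4 between shTAF7 lines. HYOU1 gained one for the difference of effects, and no other call changed.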

Other observations

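Of 11 tested genes of ER-associated degradation, 4 rose and 2 fell in LM2 (36.4% and 18.2%, against 21.8% and 19.4% of all tested genes), and 1 fell in MDA-MB-231 (9.09%, against 12.9%). VCP, the ATPase that extracts proteins from the ER membrane, rose in LM2 from 299 and 304 CPM to 475 and 488 CPM (0.68 ± 0.07, edgeR adjusted p = 2.65e-11), while EDEM1, a lectin-like protein that directs misfolded glycoproteins to degradation, fell from 109 and 114 CPM to 89.3 and 79.0 CPM (-0.41 ± 0.07, edgeR adjusted p = 1.25e-05). SEL1L, the adaptor of the HRD1 ubiquitin ligase, fell in both lines (-0.33 ± 0.08 in LM2, edgeR adjusted p = 0.000749; -0.39 ± 0.08 in MDA-MB-231, edgeR adjusted p = 0.000133). Of 20 other ER folding and export genes, 8 rose and 2 fell in LM2 (40% and 10%), and 2 rose and 3 fell in MDA-MB-231 (10% and 15%, against 12.6% and 12.9% of all tested genes).

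Of 10 other mitochondrial folding and protease genes, 3 rose in LM2 (30%, against 21.8% of all tested genes), and 3 rose and 1 fell in MDA-MB-231 (30% and 10%, against 12.6% and 12.9%). CLPP, a matrix protease, rose in both lines (0.41 ± 0.08 in LM2, edgeR adjusted p = 1.78e-05; 0.33 ± 0.08 in MDA-MB-231, edgeR adjusted p = 0.000964). GRPEL1, the exchange factor of mitochondrial HSP70, had 47.8 and 46.2 CPM in LM2 control against 169 and 164 CPM in MDA-MB-231 control, and rose to 57.9 and 63.4 CPM with LM2 shTAF7 (0.37 ± 0.08, edgeR adjusted p = 0.000112).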
